A study of Mus musculus with 14 samples.

Results

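The 10 genes described here encode cytokine receptor chains and the kinases bound to them: Il2rb, Il2rg, Il4ra, Il7r, Il21r and Il15ra of the common gamma-chain family, Il6ra and Il6st of the IL-6 receptor, and the kinases Jak1 and Jak3. They were chosen by name, and the probes whose gene name equals one of these symbols are their members on the array: 21 of 56605 probes, standing for 10 of 36870 gene names. RNA came from CD4+ T-cells (helper T lymphocytes) of Roquin san/+ mice, on 7 arrays, and of wild-type mice, on 7 arrays, with no treatment or time named. Roquin san/+ mice carry one copy of the sanroque allele, a point mutation in Rc3h1, whose protein Roquin binds mRNA and promotes its decay. The mutation changes the protein and not the presence of the transcript, so the level of Rc3h1 does not check the labels. The strain background, the age of the mice and the way in which the cells were isolated are not given in the sources used here. Neither is it stated whether each array stands for a separate animal, so the tests measure the spread between these arrays.

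Receptors of the gamma-chain family share the subunit encoded by Il2rg and differ in the chain that recognises the cytokine. IL-2 and IL-15 signal through Il2rb with Il2rg, IL-4 through Il4ra, IL-7 through Il7r and IL-21 through Il21r, while Il15ra captures IL-15 and presents it to neighbouring cells. Jak3 is bound to the common chain and Jak1 to the partner chains, and both phosphorylate STAT proteins that move to the nucleus. IL-6 binds Il6ra, and the pair then recruits Il6st (gp130), which signals through Jak1 and related kinases to STAT3. In CD4+ T-cells IL-7 maintains naive cells, IL-2 restrains follicular helper differentiation through STAT5, and IL-6 and IL-21 favour it.

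The probes are 60-base oligonucleotides, and their positions are given on mm9, the build named by the array files. The results for Il15ra, Jak3 and Il21r turn on differences between probes of 1 gene, so the first 30 bases of each of their probes are shown here in lower case, 5′ to 3′, as the array files give them. Of the 21 probes, 17 are named by a RefSeq transcript that the RefSeq gene table (GRCm38.p6) holds, and all 17 carry the same symbol there. For Il15ra, on the plus strand, the brightest probe lay at chr2:11655416-11655475, another at chr2:11654809-11654868 on the same transcript (NM_133836), and the last spanned chr2:11645753-11652254, which is 6502 bases of genome for a 60-base probe, on NM_008358.
Il15ra A_55_P2060707: gacaaaaccaaactcagtgactatatatgt
Il15ra A_55_P2041738: aaaccatggaaacagtaccaatgactgtga
Il15ra A_52_P55902: aagtggccatctctacatcggtcctcttgg
For Jak3, on the plus strand, the brightest probe lay at chr8:74214085-74214144 (NM_010589), the next at chr8:74210801-74210860 (NM_001190830) and the last at chr8:74204097-74204161 (BC027234).
Jak3 A_51_P355360: tggctagagcagagacatctcctgcacgcg
Jak3 A_55_P2010912: acgtgtggagcttcggagtggtgttgtacg
Jak3 A_55_P2728208: aggaggctgtgctgggtcaggtctgtaatc
For Il21r, on the plus strand, the brighter probe lay at chr7:132776644-132776703 (NM_021887) and the dimmer at chr7:132774961-132775020 (ENSMUST00000206234).
Il21r A_55_P2753460: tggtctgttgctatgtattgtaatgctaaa
Il21r A_55_P2730446: gtgctgttgctgctgatcttgtgtgacaag
No annotation of mm9 exons or UTRs was used here, so the probes are placed by transcript only.

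A level is the log2 processed signal of a probe less the 75th percentile of its array, so 0 is the 75th percentile of the 10320 probes that every array called well above background. Levels of different probes are not set against each other. On 2 arrays, replicate G of Roquin san/+ and replicate E of wild-type, the spots lay 2 grid rows away from their probe names and were moved back, after which they had correlations of 0.99 with the array median in place of 0.02. Roquin san/+ replicate C was the dimmest array, with a 75th percentile of 800 units of signal against 4898 to 13112 on the others, and it exceeded all 13 other arrays by over 2 log2 units at 1531 of the tested probes, against 173 at the next array, Roquin san/+ replicate F. All 8 CD4 T-cell markers (Cd3d, Cd3e, Cd3g, Cd4, Cd5, Cd28, Lat and Thy1) were measured in both groups, with differences of -0.24 to -0.030. Their mean level was 0.62 on Roquin san/+ replicate C, 0.44 on Roquin san/+ replicate F and 0.69 on wild-type replicate C, against 1.50 to 2.01 on the 11 other arrays. Replicate F also had the highest mean level of the B-cell and myeloid marker lists, at 0.64 and 0.65. The 5 Roquin san/+ and 2 wild-type arrays of slide 1 faced 2 and 5 on slide 2.

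No receptor or kinase gene passed the test between genotypes. A probe was tested if it was well above background on all 6 correctly placed arrays of at least one genotype, which 20 of the 21 probes and all 10 genes did. By limma with Benjamini-Hochberg adjustment over the 28805 probes tested, 0 of the 10 genes had an adjusted p below 0.05, as did 0% of all probes (0 of 28805), and the smallest adjusted p of any probe was 0.867. At an unadjusted p below 0.05, 1 of the 10 genes (Jak3) was higher in Roquin san/+, against 3.47% of all probes (999), and 0 were lower, against 0.351% (101). The median difference of the 10 genes, each taken at its brightest tested probe, was 0.068 on the log2 scale, and the median of all tested probes was 0.071. Of the genes, 6 had positive and 4 negative differences (Roquin san/+ minus wild-type), and 60.4% of all tested probes were positive. The ranges of the 2 genotypes overlapped for all 10 genes, as they did for all but 13 of the 28805 tested probes (13 higher and 0 lower in Roquin san/+). In RNA from whole cell preparations, fewer cells of one kind and less RNA per cell cannot be told apart.

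**Figure D1:**
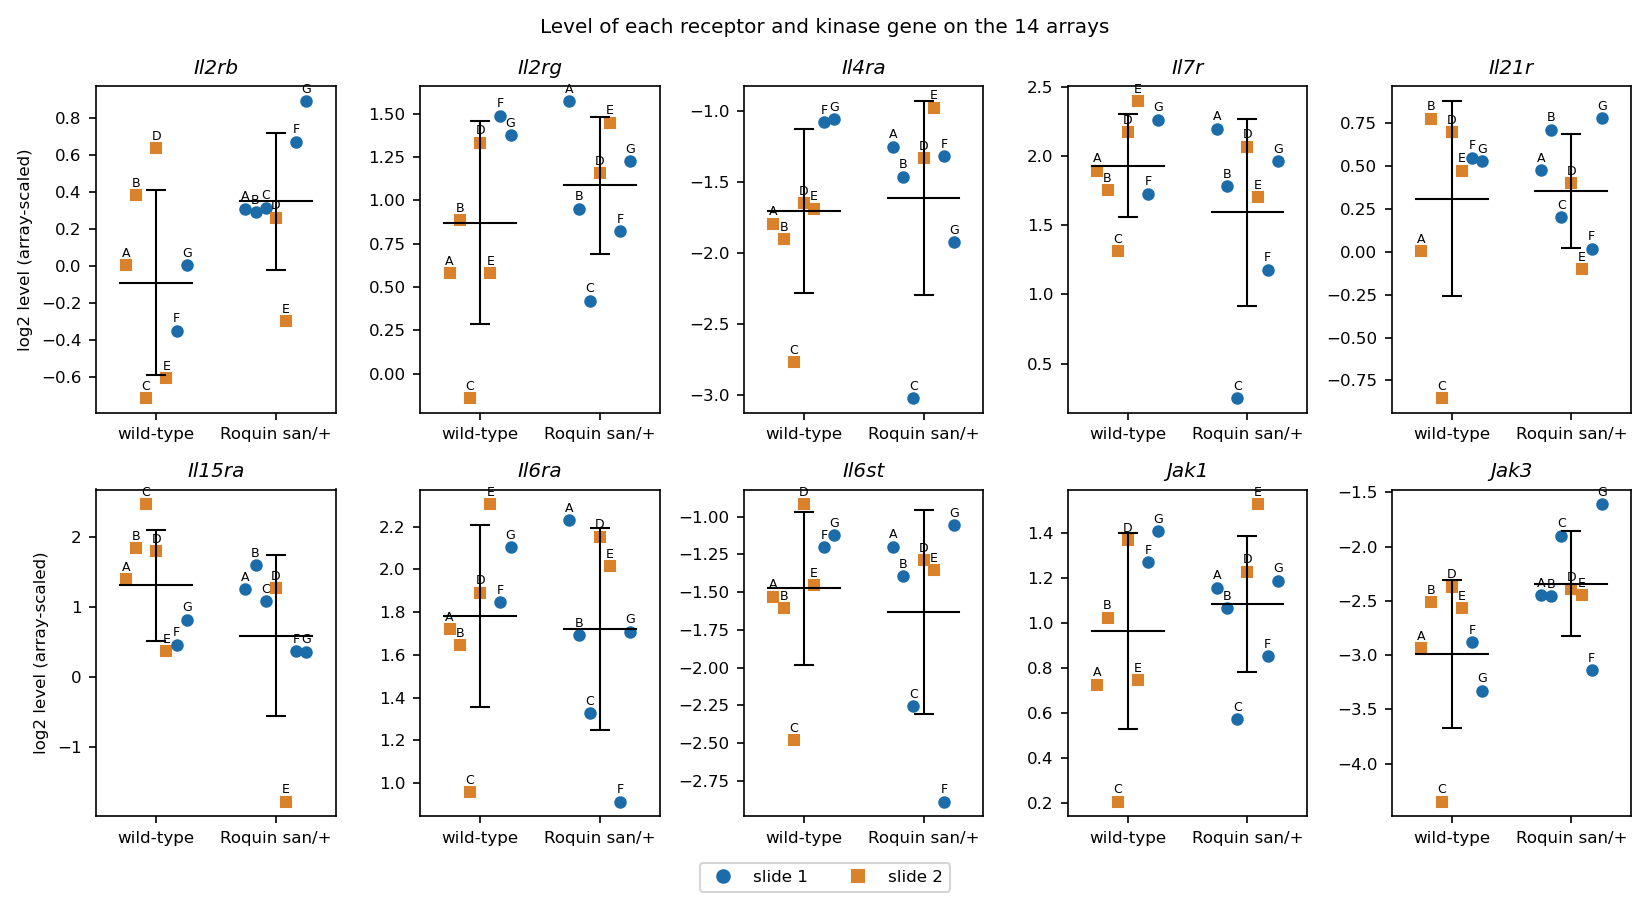
Log2 level of the brightest tested probe of each gene on every array, by genotype (7 arrays each, letters name the replicates), with bars for the mean and SD and symbols for the slide. Wild-type replicate C is the lowest wild-type array in 9 of 10 panels. The groups overlap in every panel, as at all but 13 of the 28805 tested probes.

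Il2rg, the common gamma chain itself, was measured by 1 probe. In Roquin san/+ its level ran from 0.42 to 1.57 (median 1.16), and in wild-type from -0.14 to 1.49 (median 0.89). Roquin san/+ replicate C and wild-type replicate C were the lowest of their groups, and the difference of 0.21 ± 0.26 (SE, n = 7 and 7) was within the spread of either group (exact permutation p = 0.443). Without wild-type replicate C it was 0.045.

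Il2rb, the signalling chain shared by IL-2 and IL-15, had levels of -0.30 to 0.89 (median 0.31) in Roquin san/+, against -0.72 to 0.64 (median 0.0028) in wild-type. Of the Roquin san/+ arrays, 6 lay at 0.26 or above and replicate E was alone below 0. The difference was 0.44 ± 0.24 (SE), or 1.36-fold, with an adjusted p of 0.867 by limma and an exact permutation p of 0.098. Of the re-registered arrays, Roquin san/+ replicate G had the top level, and wild-type replicate E, at -0.61, lay just above the lowest array of its group, replicate C. Without both re-registered arrays the difference was 0.26. The second Il2rb probe differed by 0.33 ± 0.26 and placed the same wild-type array at the top of its group, at 0.70. Averaged over both probes, the difference was 0.38 (exact permutation p = 0.022). That exact permutation p was the lowest of 30 alternatives for Il2rb, of which 3 lay below 0.05 and the highest was 0.95.

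Il4ra, the receptor chain for IL-4 and IL-13, had levels of -3.02 to -0.98 (median -1.33) in Roquin san/+, against -2.77 to -1.06 (median -1.69) in wild-type. A single array of each group, replicate C in both, lay far below the rest. The difference was 0.093 ± 0.32 (exact permutation p = 0.768) and was 0.33 without Roquin san/+ replicate C and -0.084 without wild-type replicate C. A second probe, which lies earlier in the same transcript (from base 466 against base 3242), differed by -0.68 ± 0.43 (exact permutation p = 0.174).

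Il7r, the IL-7 receptor chain that marks naive and memory T-cells, had levels of 0.25 to 2.20 (median 1.78) in Roquin san/+, against 1.31 to 2.40 (median 1.89) in wild-type. Roquin san/+ replicate C alone lay at 0.25, below every other array. The difference was -0.34 ± 0.28 (exact permutation p = 0.288) with all arrays and -0.12 without replicate C. A dimmer second probe differed by -0.41 ± 0.46 (exact permutation p = 0.438). It was well above background on 4 of the 6 correctly placed Roquin san/+ arrays and passed the filter through wild-type alone. The filter thus favoured its direction, which adds no support.

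Il21r, the receptor of the helper cytokine IL-21, had levels of -0.10 to 0.78 (median 0.40) in Roquin san/+, against -0.85 to 0.78 (median 0.53) in wild-type. The difference was 0.044 ± 0.25, with a 95% confidence interval of -0.48 to 0.57 by limma, so a change of 1 on the log2 scale in either direction lay outside the interval. The dimmer Il21r probe differed by 0.59 ± 0.55, and this value rested on 1 array. Roquin san/+ replicate C gave 0.47 there, while the 13 others gave -3.22 or less, and without replicate C the difference at this probe was 0.0041 (exact permutation p = 0.973).

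Il15ra, which presents IL-15, had the widest spread of the 10 genes. Its brightest probe ran from -1.79 to 1.60 (median 1.08) in Roquin san/+, against 0.36 to 2.47 (median 1.40) in wild-type. Roquin san/+ replicate E was the lowest of all arrays and wild-type replicate C, lowest in its group for the 9 other genes, was the highest. The difference was -0.72 ± 0.48, or 0.609-fold, with a 95% confidence interval of -1.75 to 0.32, an adjusted p of 0.867 by limma and an exact permutation p of 0.211. Without replicate E it was -0.32. The other probes pointed the other way, at 0.57 ± 0.38 for the probe 607 bases upstream on the same transcript and at 0.49 ± 0.31 for the probe that spans 6502 bases. Those 607 bases are the distance both along the transcript and along the genome, and these 2 probes therefore disagreed in direction within a stretch of the gene that holds no intron. Both dimmer probes were highest on Roquin san/+ replicate C and not well above background on the 2 re-registered arrays.

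For the IL-6 receptor, neither chain differed by more than its spread. Il6ra, which binds IL-6, had levels of 0.91 to 2.23 (median 1.71) in Roquin san/+, against 0.96 to 2.30 (median 1.85) in wild-type, a difference of -0.061 ± 0.24 (exact permutation p = 0.800). Its 95% confidence interval by limma was -0.57 to 0.45. Il6st, the gp130 chain, had levels of -2.89 to -1.06 (median -1.36) in Roquin san/+, against -2.48 to -0.92 (median -1.45) in wild-type, a difference of -0.16 ± 0.31 (exact permutation p = 0.648). The lowest arrays were Roquin san/+ replicate F and wild-type replicate C for both genes. A second tested probe differed by 0.080 ± 0.35 for Il6ra and by -0.30 ± 0.33 for Il6st. The third Il6st probe did not pass the filter.

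Jak1, the kinase used by both receptor families, had levels of 0.57 to 1.53 (median 1.16) in Roquin san/+, against 0.20 to 1.40 (median 1.02) in wild-type. The difference of 0.12 ± 0.21 had the narrowest interval of the 10 genes (-0.32 to 0.56 by limma) and an exact permutation p of 0.564.

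Jak3, the kinase of the common gamma chain, had the largest positive difference. Its levels ran from -3.14 to -1.61 (median -2.44) in Roquin san/+, against -4.35 to -2.37 (median -2.88) in wild-type. In Roquin san/+, 4 arrays lay between -2.46 and -2.39, replicates C and G above them and replicate F below, while wild-type replicate C was the lowest of all 14. The difference was 0.65 ± 0.30, or 1.57-fold (unadjusted p = 0.048 and adjusted p = 0.867 by limma), and the exact permutation p was 0.059. The second Jak3 probe differed by 0.45 ± 0.25 (exact permutation p = 0.096) and the third by 0.95 ± 0.58 (exact permutation p = 0.046). At the third probe Roquin san/+ replicate C gave 0.082 and all 13 others -3.58 or less, and without it the difference was 0.34 (exact permutation p = 0.094). The brightest probe rested in part on wild-type replicate C, without which its difference was 0.42. The 3 probes had the same direction, with differences of 0.58, 0.40 and 0.34 without Roquin san/+ replicate C, and none was called. They read the same RNA on the same arrays, so their shared direction is not independent support. Wild-type replicate C, the lowest wild-type array at all 3 probes, stayed in these values. Averaged over the probes and all arrays, the difference was 0.68 (exact permutation p = 0.019), which counts Roquin san/+ replicate C at the third probe.

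**Figure D2:**
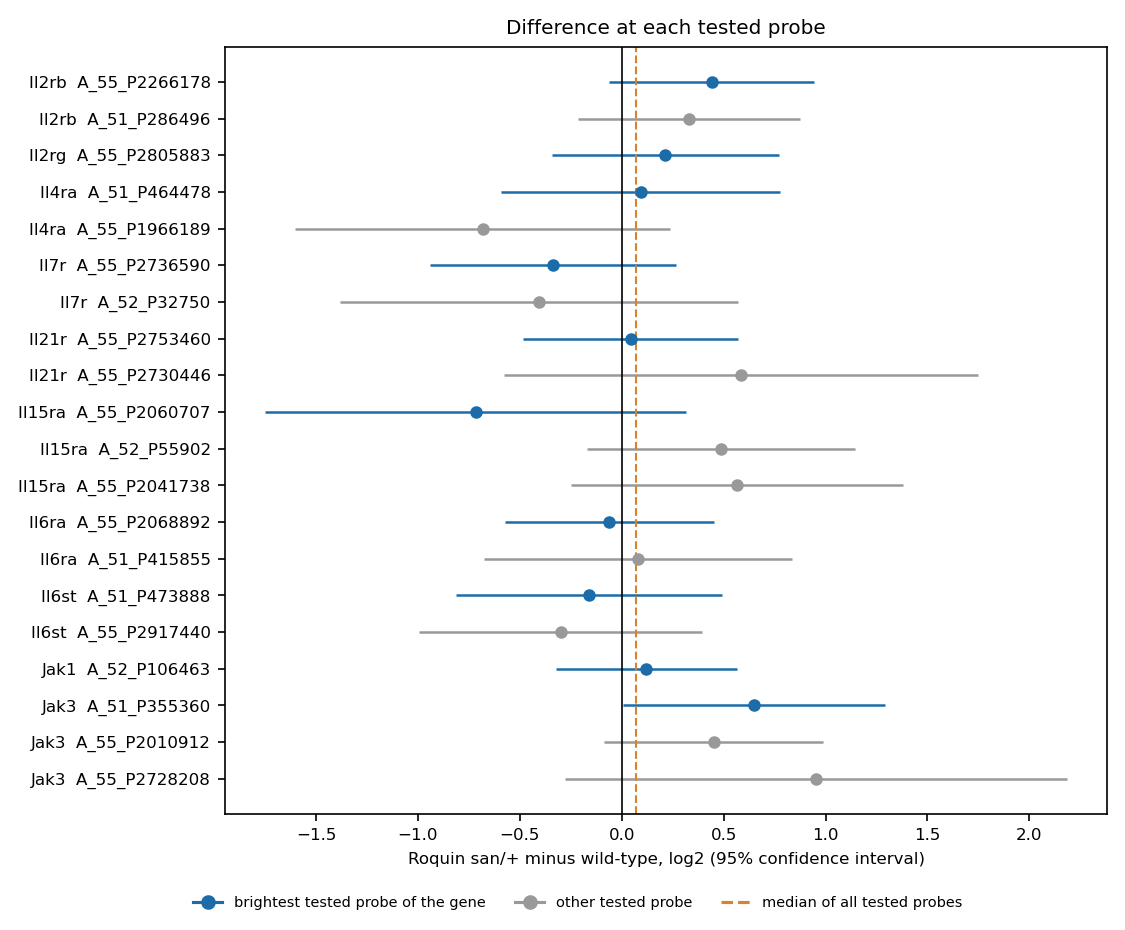
Difference between genotypes (Roquin san/+ minus wild-type, log2) with its 95% confidence interval at each of the 20 tested probes, blue for the brightest probe of a gene and grey for the others; the dashed line is the median of all tested probes, 0.071. All 3 Jak3 probes lie above 0, and Il15ra, Il4ra and Il6ra have probes on either side.

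Over the 20 tested probes, 13 differences were positive and 7 negative, and for 3 of the 8 genes with over 1 tested probe (Il4ra, Il15ra, Il6ra) the probes differed in sign. Among the negative ones, the second Il7r probe passed the filter through wild-type alone, the group in which it was higher. The 10 brightest probes were well above background on both re-registered arrays, but 8 of the 10 other probes were not on either, and at those the 2 arrays give only a bound.

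Slide and genotype overlapped in part, so each difference was also taken within slides. Jak3 was higher in Roquin san/+ in both, by 0.79 on slide 1 and 0.53 on slide 2, as was Il2rb by 0.67 and 0.040. For Il2rg the differences were -0.43 on slide 1 and 0.65 on slide 2, for Il4ra -0.73 and 0.81, for Jak1 -0.37 and 0.56, for Il6ra -0.40 and 0.38, and for Il6st -0.60 and 0.28. Il15ra went the other way, with 0.29 and -1.83. On slide 2 its Roquin san/+ arrays were replicate D at 1.27 and replicate E at -1.79, against a wild-type mean of 1.57, so that value rested largely on replicate E. The differences of Il7r were -0.52 and -0.020 and those of Il21r -0.10 and -0.072. The difference between slides was not tested. The lowest exact permutation p within a slide was 0.095 over the 10 genes, where 21 arrangements allow 0.048 at best. With slide as a block the exact permutation p of Jak3 was 0.098, and no gene was called by limma. Slide 1 held Roquin san/+ replicates C and F, and slide 2 held wild-type replicate C, the 3 arrays with low CD4 T-cell markers; their part in these signs was not tested.

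**Figure D3:**
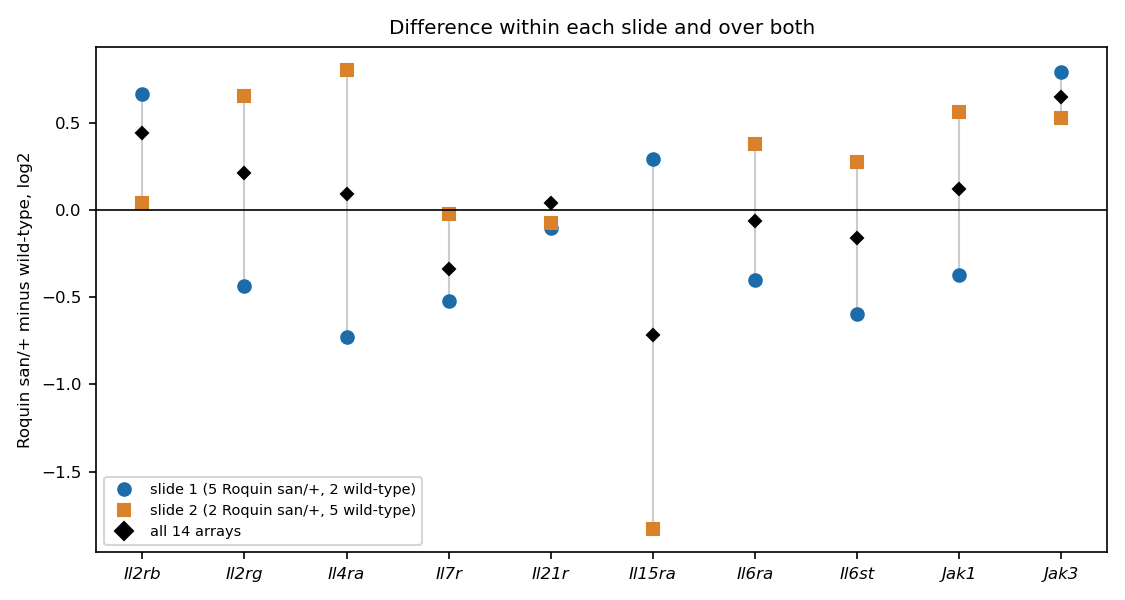
Difference between genotypes (log2) for the brightest probe of each gene on slide 1 (circles), on slide 2 (squares) and over all 14 arrays (diamonds). Il2rg, Il4ra, Il15ra, Il6ra, Il6st and Jak1 change sign between slides, and Jak3 lies above 0 on both.

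Some of the receptor genes and Jak1 varied together between the arrays. Of the 45 pairs among the 10 genes, 8 had a Pearson correlation over the 14 arrays with an adjusted permutation p below 0.05, all 8 positive. They join Il2rg, Il4ra, Il7r, Il6ra, Il6st and Jak1, and none holds Il2rb, Il21r, Il15ra or Jak3. The closest pair was Il2rg and Jak1, with r = 0.95 (permutation p = 2e-05, adjusted p = 9e-04) and Spearman's rho = 0.88 (permutation p = 1.1e-04, adjusted p = 0.005). Without wild-type replicate C and Roquin san/+ replicate C, the arrays farthest from the Il2rg median, r was 0.88. It was 0.90 within slide 1 and 0.998 within slide 2. Of all other tested probes, 0.0382% had a correlation with Il2rg at least as high. For Il6ra and Il6st, the chains of the IL-6 receptor, r was 0.85 (permutation p = 4e-04, adjusted p = 0.008), but rho was 0.63 (permutation p = 0.018, adjusted p = 0.103) and r fell to 0.58 without Roquin san/+ replicate F and wild-type replicate C. Il4ra had correlations of 0.80 with both Il2rg and Jak1, Il7r of 0.76 with Il6ra and 0.75 with Il6st, and Il6st of 0.74 with Jak1 and 0.71 with Il2rg (adjusted permutation p = 0.008 to 0.029), with rho of 0.67 to 0.82 (adjusted permutation p = 0.014 to 0.071). The share of other tested probes with a correlation at least as high was 0.368% for Il6ra and Il6st and ran from 1.32% (Il4ra and Jak1) to 4.65% (Il2rg and Il6st) for the 6 pairs after them. All 8 pairs kept r above 0.5 within each slide. Without the 2 arrays farthest from the median of a gene of the pair, r ran from 0.51 to 0.88. Il15ra had correlations of -0.45 to -0.50 with Il2rg, Jak1 and Il4ra that missed the threshold (adjusted permutation p = 0.142 to 0.189), and with rho of -0.43 to -0.35 (adjusted permutation p = 0.365 to 0.408). Its r was -0.28 with Il6ra, -0.14 with Il6st and -0.037 with Il7r. Without Roquin san/+ replicate E and wild-type replicate C, the arrays farthest from the Il15ra median, its r was 0.12 with Jak1, 0.098 with Il6ra and 0.24 with Il6st. With Il2rg and Il4ra the arrays left out were Roquin san/+ replicate C and wild-type replicate C, and r was -0.24 and -0.50. Replicate E stayed in there, so these values cannot be set against those for Jak1, Il6ra and Il6st.

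The arrays in these pairs share their scaling, their labelling reaction and the mix of cells. For 9 of the 10 genes the lowest of the 14 arrays was Roquin san/+ replicate C, Roquin san/+ replicate F or wild-type replicate C, the arrays with CD4 T-cell marker levels of 0.44 to 0.69. The mean level of the 10 genes was -0.30, -0.25 and -0.64 on these and -0.028 to 0.50 on the 11 others. Leaving out replicates C and F of Roquin san/+ and both re-registered arrays, r was 0.94 for Il2rg and Jak1 and 0.88 for Il6ra and Il6st. That set kept wild-type replicate C, which had the lowest mean level of the 10 genes. Without wild-type replicate C and Roquin san/+ replicate C, r was 0.88 for Il2rg and Jak1. Without wild-type replicate C and Roquin san/+ replicate F, it was 0.58 for Il6ra and Il6st. No set left out all of these low arrays. The part of cell mix and RNA quality in the correlations was not tested.

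**Figure D4:**
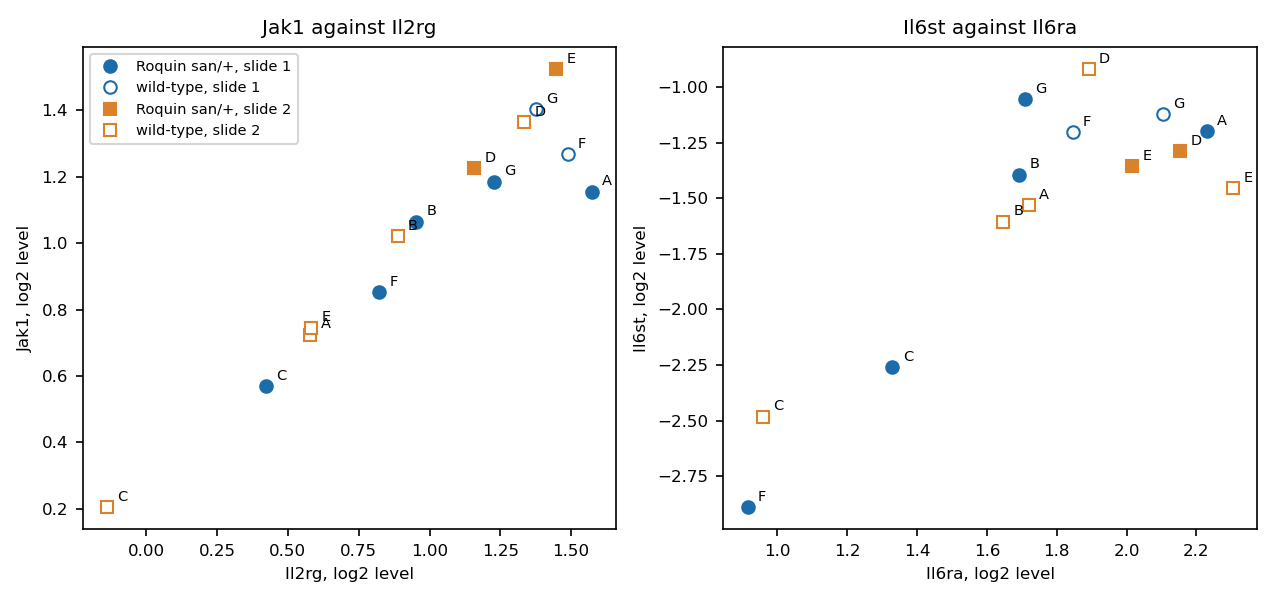
Log2 levels of Jak1 against Il2rg and of Il6st against Il6ra on the 14 arrays, filled symbols for Roquin san/+ and open for wild-type, circles for slide 1 and squares for slide 2, with replicate letters. Jak1 follows Il2rg over the whole range (r = 0.95), while the Il6ra and Il6st pair is spread by 3 low arrays.

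The other genes of the pathway were taken from lists of 49 genes, of which 40 were tested and 0 were called by limma, with 3 higher and 0 lower at an unadjusted p below 0.05 (against 3.47% and 0.351% of all probes). The 4 further chains that join these receptors were all higher in mean in Roquin san/+, with a median difference of 0.61. Among them Il13ra1, which pairs with Il4ra to bind IL-13, had levels of -5.36 to -2.21 (median -4.51) in Roquin san/+, against -6.70 to -3.97 (median -5.37) in wild-type. The difference was 1.25 ± 0.50 (unadjusted p = 0.025 and adjusted p = 0.867 by limma, exact permutation p = 0.040). Its highest array was Roquin san/+ replicate F, which had the highest B-cell and myeloid marker levels, and without it the difference was 0.92 (exact permutation p = 0.082). It was 2.75 on slide 1 and 0.040 on slide 2. On the re-registered wild-type replicate E the probe was not well above background, so that value may be only a bound.

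Of 9 ligands, 3 were tested, since Il2, Il6, Il7, Il9, Il13 and Tslp did not pass the filter. Il21, the cytokine of follicular helper T-cells, differed by 1.32 ± 0.79 (exact permutation p = 0.161). Its levels ran from -4.44 to -1.44 in Roquin san/+ and from -7.55 to -2.51 in wild-type, and the differences were 3.41 on slide 1 and 0.15 on slide 2. Without wild-type replicate G the difference was 0.84. The probe was not well above background on the re-registered wild-type replicate E, which may give only a bound. The 6 Tfh markers were all higher in mean in Roquin san/+, by 0.21 to 0.84, and 0 of them were called. Most markers of other cell types were higher in mean too, as were 60.4% of all tested probes. They were 9 of 9 myeloid markers (median 0.94), 6 of 6 tested B-cell markers (0.87), 2 of 2 tested CD8 T-cell markers (1.51), 4 of 4 regulatory T-cell markers (0.54) and 2 of 4 tested NK markers (0.26). Roquin san/+ replicate F had the highest mean of all arrays for the myeloid (0.65), B-cell (0.64), CD8 T-cell (-0.066) and NK lists (-1.43). The next-highest arrays had -0.82, -1.29, -1.79 and -3.91. For regulatory T-cell markers replicate F was the lowest Roquin san/+ array. Differences of these lists without replicate F are not given here. The 5 tested naive T-cell markers were all lower in mean (median -0.21), as was the 1 tested erythroid marker (-0.060). By limma 0 of all these were called. Their part in the differences of Il21 and of the Tfh markers was not tested. Among other receptors that use gp130, 2 of 5 were tested, and Il11ra1 differed by -0.27 ± 0.17 (exact permutation p = 0.050). That difference was -0.13 without wild-type replicate E.

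Downstream, 7 of the 9 other JAKs and STATs were higher in mean and 2 lower, with a median of 0.17. None was called. Of the 14 inhibitors of JAK-STAT signalling, 9 were higher and 5 lower in mean, with a median of 0.11 and a range of -0.12 to 0.44. Socs2, which is induced by STAT5, was at the upper end, at 0.44 ± 0.26 (exact permutation p = 0.118), and at 0.28 without Roquin san/+ replicate C, and on both re-registered arrays it was not well above background. Of 8 textbook targets of STAT5 or STAT3, 6 were higher and 2 lower, with a median of 0.29. Batf, a transcription factor needed for follicular helper and Th17 cells, differed by 0.75 ± 0.33 (exact permutation p = 0.049), and Bcl3, a nuclear partner of NF-kB, by 0.67 ± 0.28 (exact permutation p = 0.035). Neither passed the test over all probes (adjusted p = 0.867 by limma for both). For Batf the differences were 0.59 on slide 1 and 1.003 on slide 2, and for Bcl3 1.06 and 0.16. Without Roquin san/+ replicate G, Batf differed by 0.55, and without wild-type replicate C, Bcl3 differed by 0.49. With 1 array left out, the exact permutation p reached 0.106 for Batf and 0.075 for Bcl3. Over all alternatives the highest was 0.52 and 0.81.

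**Figure D5:**
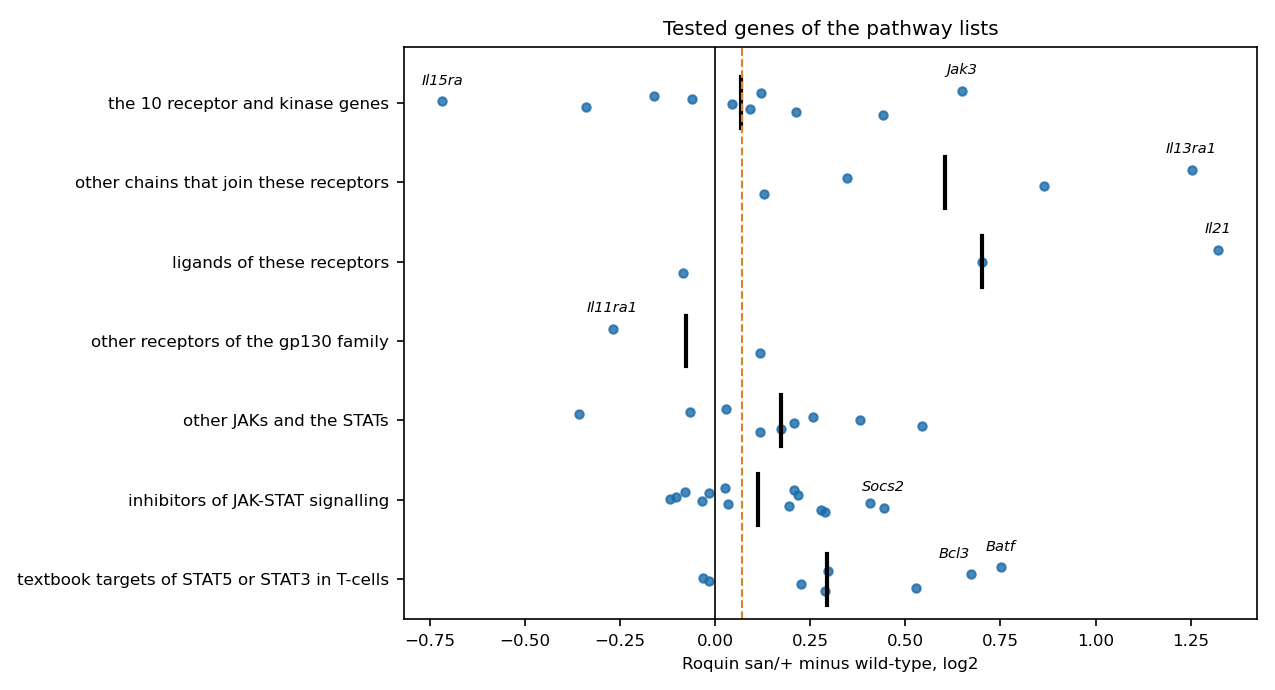
Difference between genotypes (log2) for each tested gene of the receptor and kinase group and of the 6 pathway lists, with a black bar at the median of each list and a dashed line at the median of all tested probes. The receptor and kinase genes centre on the dashed line, and none of the genes drawn was called.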

How the data were processed

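The authors hybridised Cy3-labelled RNA to one-colour arrays, and the deposited scanner files hold spot intensity values made with Agilent Feature Extraction 10.5.1.1, as per the labels: the processed signal is background-subtracted per array. A further table deposited by the authors holds log2 values of the same arrays, with equal quantiles, whose method is not given in the sources used here; it served as an alternative. The paper given with the series does not describe these arrays.

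The 10 genes, the lists and the tests were chosen with earlier results of these data known. Spots were re-registered on 2 arrays by the shift, of up to 6 rows or columns, with the highest correlation with the array median. Spots of a probe were averaged without control spots and spots with outlier flags. The 75th percentile was taken over 10320 probes well above background on all 14 arrays. Probes were tested if well above background on all 6 correctly placed arrays of at least one genotype (802 passed through Roquin san/+ alone and 3959 through wild-type alone), since the detection calls of the moved arrays were set on misplaced control spots. limma 3.58.1 in R 4.3.3 was fitted to 28805 probes (lmFit, eBayes, Benjamini-Hochberg, threshold 0.05), and 241 that passed were left out for a missing value. Single probes were also tested by two-sided exact permutation of the 3432 arrangements, for which the smallest p is 5.83e-04. Correlation p-values came from 100000 resamples. A gene was represented by its tested probe with the highest mean; SD and SE are on the log2 scale. Named were all 10 genes and, of each pathway list, those with an unadjusted limma p below 0.05 or, with none, the one with the largest difference; some results are not reported here. Arrays of 1 letter were not taken as pairs in the main fit. Their deviations from the group means had correlations of -0.33 to 0.43, which cannot show whether the letters are pairs. The fit was tested on simulated data. The number of arrays limits the precision.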

Additional observations from a re-analysis of the deposited data

Results flagged for a closer look

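In 8 of 54 groups of 7 arrays (27 probes, each in 2 genotypes), 1 array stood apart from the other 6 by more than the critical share of the group's range for 7 values at the 95% level. Chance would do so in about 1 group in 20. On Roquin san/+ replicate C, the third Jak3 probe gave 0.082 against -4.70 to -3.58 on the others of its group, and the dimmer Il21r probe gave 0.47 against -4.11 to -3.22. On wild-type replicate C, the second Jak3 probe gave -4.43 against -3.48 to -2.79, the third gave -4.99 against -4.56 to -4.39, and Batf gave -2.33 against -1.46 to -0.82. On Roquin san/+ replicate E, the brightest Il15ra probe gave -1.79 against 0.36 to 1.60. On wild-type replicate E, the second Il2rb probe gave 0.70 against -0.93 to -0.26, and Il11ra1 gave -0.11 against -1.18 to -0.89.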

How the results depend on the processing

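No alternative gave an adjusted p below 0.05 by limma for any probe, so the counts of called probes and of called receptor and kinase genes were 0 in all 31 settings, with 53 to 2388 probes at an unadjusted p below 0.05. The median difference of the 10 genes was 0.068 and ran from -0.12 (without wild-type replicate C) to 0.14 (without Roquin san/+ replicate C) when 1 array was left out. It was -0.39 on slide 1 alone and 0.33 on slide 2 alone, and 0.21 without both re-registered arrays and Roquin san/+ replicates C and F, a setting added after replicate C was seen to stand apart. The scaling moved the median of all tested probes from 0.071 to 0.23 with normexp, to -0.080 with quantile normalization, to -0.10 with the 75th percentile of all probes and to -0.075 in the authors' log2 values, and to 0.40 with no filter. Relative to these, the median of the 10 genes differed by -0.16 with normexp, 0.074 with quantiles, -0.0024 with all probes, 0.048 in the authors' values and -0.33 with no filter. With the letters as a replicate block, 0 probes were called, the median of the 10 genes stayed at 0.068 and no call by limma changed, while the exact permutation p of Il15ra (-0.72) was 0.016 in place of 0.211. At the brightest Il15ra probe Roquin san/+ was lower at every letter, which gives the smallest p that this block allows. The labels do not say that the letters pair the arrays.

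Jak3, Il2rb and the 6 pathway genes named kept their direction in every setting. The exact permutation p of Jak3 was 0.015 without Roquin san/+ replicate F, 0.118 at most with 1 array left out, 0.043 with normexp and 0.177 with the 75th percentile of all probes. Of 30 alternatives, 7 gave Jak3 an exact permutation p below 0.05, and the highest was 0.557. Signs turned in some settings for the 8 other receptor and kinase genes, Il15ra and Il7r among them. With Il21r they did so at -0.044 with normexp, -0.13 with the percentile of all probes, -0.086 with slide as a block, -0.10 and -0.072 on slides 1 and 2 alone, -0.086 in the authors' values and -0.11 under the deposited probe names. With Il4ra it was -0.030 with quantiles, -0.080 with all probes, -0.73 on slide 1 and -0.29 as the mean of its probes. With Jak1 it was -0.052 with all probes, -0.37 on slide 1 and -0.014 under the deposited names. On slide 1 Il2rg was -0.43 and Il15ra 0.29, and Il15ra was 0.11 as the mean of its probes. On slide 2 Il6ra was 0.38 and Il6st 0.28. Il6ra was 0.028 without the re-registered arrays, 0.19 without those and replicate F, 0.33 without those and replicates C and F, and 0.0098 as the mean of its probes. In that setting without 4 arrays, Il7r was 0.085 and Il6st 0.17. Leaving out 1 array, the differences ran from -0.15 to 0.12 for Il21r, -0.084 to 0.33 for Il4ra, -0.20 to 0.073 for Il6ra, -0.33 to 0.048 for Il6st and -0.0055 to 0.21 for Jak1. The lowest value was found without wild-type replicate C for all 5, and the cause was not tested. Levels near background limit the dimmer probes, 8 of which were not called well above background on either re-registered array.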
